A study of Homo sapiens with 6 samples.

Results

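The p53 pathway was described here through 33 genes: regulators of the transcription factor p53 and genes listed as its targets or as relatives of them. They were taken by gene symbol from a deposited table of 58735 genes, in which each of the 33 had exactly 1 row, and CDKN1A was left out of the set by design. RNA-seq was done on Ishikawa cells, a line from a human endometrial adenocarcinoma, 48 hours after lipofection with an siRNA against TCF19 (siTCF19, 3 libraries) or with a negative control siRNA (siNC, 3 libraries). All libraries therefore came from transfected cells of the same line, and the labels do not name the siRNA sequences. No label states whether replicate libraries were separate cultures, so the p-values refer to the variation among these samples, part or all of which may be technical.

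p53 is a tetrameric transcription factor that is kept scarce by the ubiquitin ligase MDM2 and its partner MDM4. DNA damage, ribosome assembly defects and oncogene activity weaken that hold, and p53 then switches on genes for cell cycle arrest, DNA repair, metabolic adjustment and apoptosis. MDM2 is itself a p53 target, which closes a negative feedback loop.

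The libraries held 14680022 to 15529688 counts in siTCF19 and 14872698 to 16244705 counts in siNC. TCF19 had 42.7, 35.3 and 39.1 CPM (counts scaled to a common library size with TMM factors) in siTCF19, against 177, 185 and 177 CPM in siNC. The target of the siRNA was thus lower in every siTCF19 library, with a log2 fold change of -2.20 ± 0.06 (SE, edgeR adjusted p = 6.15e-29). The 8 epithelial and endometrial marker genes summed to 2745 to 2871 CPM in siTCF19 and to 2912 to 3043 CPM in siNC. Of the 7 that were tested, CDH1 (log2 fold change 0.61) and KRT19 (0.44) were called higher, KRT8 (-0.40) and KRT18 (-0.43) lower and 3 were not called, while the oestrogen receptor gene ESR1 had 0 or 1 counts in siTCF19 and 0 to 4 in siNC. The 11 stromal, endothelial and immune markers summed to 39.7 to 47.2 CPM in siTCF19 and 24.1 to 27.0 CPM in siNC, most of it from COL1A1 (log2 fold change 0.58) and VWF (1.60), which were called higher. Of the other 9, the endothelial cadherin gene CDH5 was called lower, with 3 to 5 counts in siTCF19 and 12 to 19 in siNC. The remaining 8 were too low to test: PECAM1 had 0 to 3 counts in siTCF19 and 6 to 15 in siNC, DCN was at 0 in all 6 libraries and COL3A1 at 0 or 1. Some of these markers moved with the groups, in both directions, and their part in the results was not tested. In bulk RNA, fewer cells of a type and less RNA per cell cannot be told apart.

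The DNA element that p53 binds consists of a pair of copies of a 10-base motif, the p53 decamer. Promoter windows from RefSeq (build GRCh38.p14, 250 bases before to 50 after each annotated start) were found for 29 of the 33 genes, and the missing entries are GADD45A, PHLDA3, RRM2B and TP53INP1. A gene can have several annotated starts, and the 29 genes had 45 windows. An exact match to the decamer stood in at least 1 window of 7 of these 29 genes (24.1%), against 8.06% of all 27305 genes with a window. A gene with more windows is more likely to hold a match. Per window the shares were 15.6% of the 45, against 6.63% of all 35116. The motif is its own reverse complement, so a search of 1 strand covers both. The 7 stretches are shown to give the letters behind these counts. A single decamer is only a part of the paired element, and binding by p53 was not tested. Each is 30 bases, 5′ to 3′ on the strand of the gene, with exact decamers in capitals.
SESN1 (chr6:109009018-109009047, minus strand): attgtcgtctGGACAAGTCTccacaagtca
PLK2 (chr5:58460199-58460228, minus strand): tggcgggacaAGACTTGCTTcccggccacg
RPS27L (chr15:63157517-63157546, minus strand): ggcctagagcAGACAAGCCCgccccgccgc
FDXR (chr17:74872986-74873015, minus strand): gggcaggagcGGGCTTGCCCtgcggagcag
DDB2 (chr11:47214974-47215003, plus strand): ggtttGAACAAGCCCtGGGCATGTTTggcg
FAS (chr10:88991304-88991333, plus strand): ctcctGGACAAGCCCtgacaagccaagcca
AEN (chr15:88621301-88621330, plus strand): gagccGGGCTTGCCCgggcatgtgggagct
DDB2 was the one of the 7 with a pair of exact decamers, set 1 base apart and starting 6 bases after an annotated start. In FAS and AEN the 10 bases that follow the decamer match it at 8 of 10 positions. Counting such neighbours, with up to 2 mismatches, an intact central C and G and at most 1 base between, 3 of the 29 genes (10.3%) carried a paired element, against 0.377% of all genes with a window. Of the 7 genes, SESN1, PLK2, RPS27L, FDXR and DDB2 were called higher in siTCF19, FAS was called lower and AEN was not called. Of all 29 genes with a window, 11 were called higher and 4 lower, beside 20.7% and 20.8% of all tested genes. The 11 had 20 windows and the 4 had 10, while the 13 that were not called had 14. The calls of SESN1, FDXR and FAS were near the threshold, and a link between match and change was not tested. Most members were known p53 targets when they were listed. A match is a description of the letters in a window. All 7 printed stretches lie within the span of their gene, and not always near its outermost start. SESN1 spans 108986437 to 109094819 on the minus strand, so its stretch belongs to an internal start. Many p53 elements lie in introns or further upstream, outside the windows searched.

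In the comparison of siTCF19 with siNC, 32 of the 33 members passed the filter on low counts, and SPATA18 did not. Of the 32, 14 were called higher, 5 lower and 13 were not called, where a call is an edgeR adjusted p under 0.05 over all tested genes. That is 59.4% called, beside 41.5% of all 17299 tested genes. By direction the shares were 43.8% higher and 15.6% lower, beside 20.7% higher and 20.8% lower among all tested genes. Scaling by library size alone shifted the split over all tested genes to 4512 higher and 2842 lower, against 3586 and 3597 with TMM, and that of the members to 15 higher and 4 lower. Among tested protein-coding genes, the type to which every member belongs, 23.8% were higher and 24.5% lower. The median log2 fold change of the 32 was 0.20, and that of all tested genes was 0.00. The counts describe the set, which was chosen with earlier results of these data known, and do not test it.

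Most of the changes were small. Of the 19 called members, 10 changed by less than 1.5-fold, and the 3 that changed by at least 2-fold, PHLDA3, EDA2R and BTG2, were all higher in siTCF19, beside 2.68% of all tested genes called higher at that size. None of the 32 tested members was called lower by 2-fold, beside 2.17% of all tested genes. In log2 fold change PHLDA3 was the gene ranked 17 from the top of 17299 tested genes, EDA2R ranked 127 and BTG2 170. In 14 tested members every siTCF19 library lay above every siNC library and in 6 every one lay below, beside 24.4% and 24.9% of all tested genes (49.2% in both directions).

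**Figure D1:**
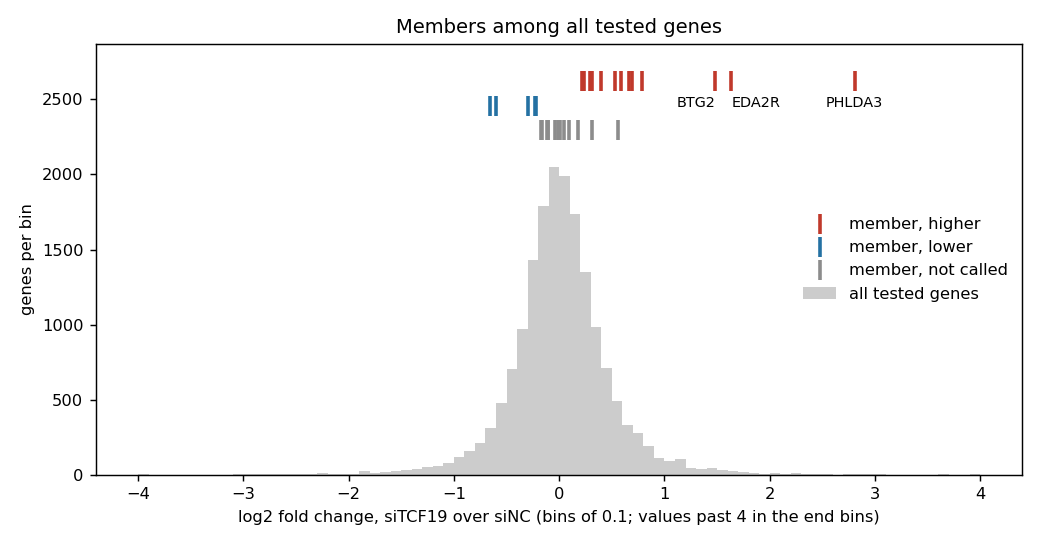
Histogram of the log2 fold change (siTCF19 over siNC) of all 17299 tested genes in bins of 0.1, in grey, with each of the 32 tested members as a tick above it, coloured by its call. The ticks of members called higher reach 2.81 (PHLDA3), while those called lower end at -0.65 (RRM2B).

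**Figure D2:**
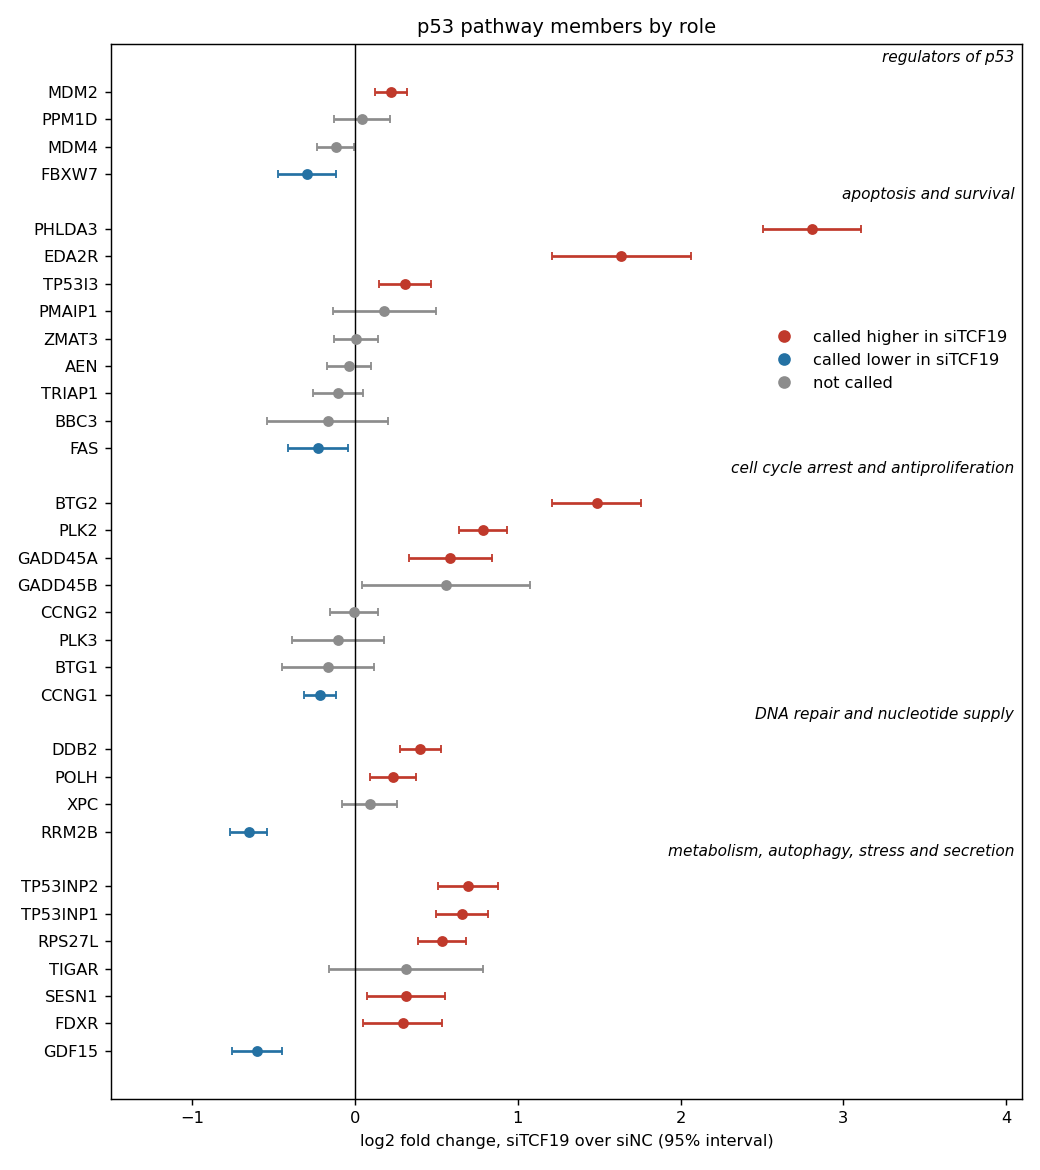
Log2 fold change of each tested member, siTCF19 over siNC, with its 95% interval from the edgeR fit, grouped by role. Each role holds members on both sides of 0, and of the 13 members that were not called all but MDM4 and GADD45B have an interval that includes 0.

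The regulators of p53 moved by small amounts. MDM2, the ubiquitin ligase and feedback target (ENSG00000135679, chromosome 12, 68808176 to 68850686, plus strand), had 280.0, 279.9 and 254 CPM in siTCF19, against 245, 224 and 229.7 CPM in siNC. All siTCF19 libraries lay above all siNC libraries, the closest pair being 254 and 245 CPM, and MDM2 rose by 0.22 ± 0.05 on the log2 scale (SE, edgeR adjusted p = 0.00029). MDM4, which binds p53 and blocks its activity, had 89.8, 90.6 and 91.0 CPM in siTCF19 and 106, 91.9 and 97.4 CPM in siNC. These groups did not overlap either, with siTCF19 lower, but MDM4 was not called (-0.12 ± 0.06, edgeR adjusted p = 0.0887). It was called lower without siNC replicate 2 (-0.16, adjusted p = 0.0285).

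PPM1D, the phosphatase that removes activating phosphates from p53 and its kinases, averaged 26.3 ± 0.392 CPM in siTCF19 and 25.6 ± 2.21 CPM in siNC (SD, n = 3 per group). It was not called, and its log2 fold change of 0.04 had a 95% interval of -0.13 to 0.22. FBXW7, the substrate receptor of a ubiquitin ligase for cyclin E and MYC, had 21.6, 21.2 and 19.6 CPM in siTCF19, against 24.9, 26.6 and 24.9 CPM in siNC. Its groups were separate, and FBXW7 fell by 0.29 ± 0.09 on the log2 scale (edgeR adjusted p = 0.00644). Fold changes computed from log2(FPKM + 1) are too small for low genes, and on that scale FBXW7 missed the threshold (-0.20, limma adjusted p = 0.0644).

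Among the 10 genes of apoptosis and survival, 9 were tested, of which 3 were called higher, 1 lower and 5 were not called. The shares of all tested genes were 20.7% higher and 20.8% lower. PHLDA3, a pleckstrin homology domain protein that competes with AKT for membrane lipids (ENSG00000174307, chromosome 1, 201464383 to 201469237, minus strand), had 24.0, 17.5 and 21.1 CPM in siTCF19, against 2.34, 3.37 and 3.21 CPM in siNC. The lowest siTCF19 library was thus several times above the highest siNC library. PHLDA3 rose 6.99-fold (95% interval 5.67 to 8.62), or by 2.81 ± 0.15 on the log2 scale (edgeR adjusted p = 2.59e-19). EDA2R, a member of the TNF receptor superfamily that binds ectodysplasin A2 (ENSG00000131080, chromosome X, 66595637 to 66639298, minus strand), had 5.88, 5.28 and 5.35 CPM in siTCF19, against 1.86, 1.65 and 1.8 CPM in siNC. Its level was low in both groups, 79 to 93 counts in siTCF19 and 26 to 28 in siNC, yet the groups were far apart. EDA2R rose 3.11-fold (95% interval 2.31 to 4.17, edgeR adjusted p = 2.3e-08).

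TP53I3, an oxidoreductase also called PIG3, had 35.3, 37.5 and 40.0 CPM in siTCF19, against 26.9, 32.8 and 31.4 CPM in siNC. Its groups did not overlap, and it rose by 0.31 ± 0.08 on the log2 scale (edgeR adjusted p = 0.00184). FAS, the death receptor for FAS ligand, had 18.7, 21.2 and 19.9 CPM in siTCF19, against 24.1, 23.1 and 22.8 CPM in siNC, and was called lower (-0.23 ± 0.09, edgeR adjusted p = 0.0419). This call was close to the threshold: FAS was not called with DESeq2 (adjusted p = 0.084) or when any 1 library other than siTCF19 replicate 2 was left out, although its groups did not overlap. Without siTCF19 replicate 1 its log2 fold change was -0.18 (adjusted p = 0.196).

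Among the members, the genes closest to the mitochondrial death machinery were not called. Outside the members, BAX of the same machinery was called higher (log2 fold change 0.19, edgeR adjusted p = 0.0106). BAX belongs to the other p53 targets counted below and was named after its values were seen. BBC3, which encodes the BH3-only protein PUMA, averaged 4.04 ± 0.411 CPM in siTCF19 and 4.55 ± 0.414 CPM in siNC, and PMAIP1, which encodes NOXA, averaged 7.21 ± 1.22 CPM in siTCF19 and 6.36 ± 0.674 CPM in siNC (SD, n = 3 per group). The 95% intervals of their log2 fold changes were -0.54 to 0.20 for BBC3 and -0.13 to 0.49 for PMAIP1. Each interval thus held both falls and rises. How small a change could be detected at this depth was not tested. AEN, an apoptosis-enhancing nuclease, averaged 55.9 ± 4.04 CPM in siTCF19 and 57.3 ± 3.59 CPM in siNC, and ZMAT3, a zinc finger RNA-binding protein, 48.5 ± 2.77 CPM in siTCF19 and 48.3 ± 1.88 CPM in siNC. TRIAP1, a survival factor that acts in mitochondrial lipid transfer, averaged 42.1 ± 2.5 CPM in siTCF19 and 45.4 ± 5.86 CPM in siNC. The groups overlapped for all 5 of these members. SPATA18, which acts in mitochondrial quality control, was barely detected, with 5, 5 and 2 counts in siTCF19 and 15, 9 and 12 in siNC, where 3 counts are the floor used here. Its groups did not overlap, and in the fit without a filter it was called lower (log2 fold change -1.58 ± 0.58, edgeR adjusted p = 0.0348). It also passed the filter in 4 of the 6 fits that left out 1 library and was called lower without siTCF19 replicate 1 (adjusted p = 0.0378), siTCF19 replicate 2 (0.0315) or siNC replicate 2 (0.0188), but not without siTCF19 replicate 3 (0.101).

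**Figure D3:**
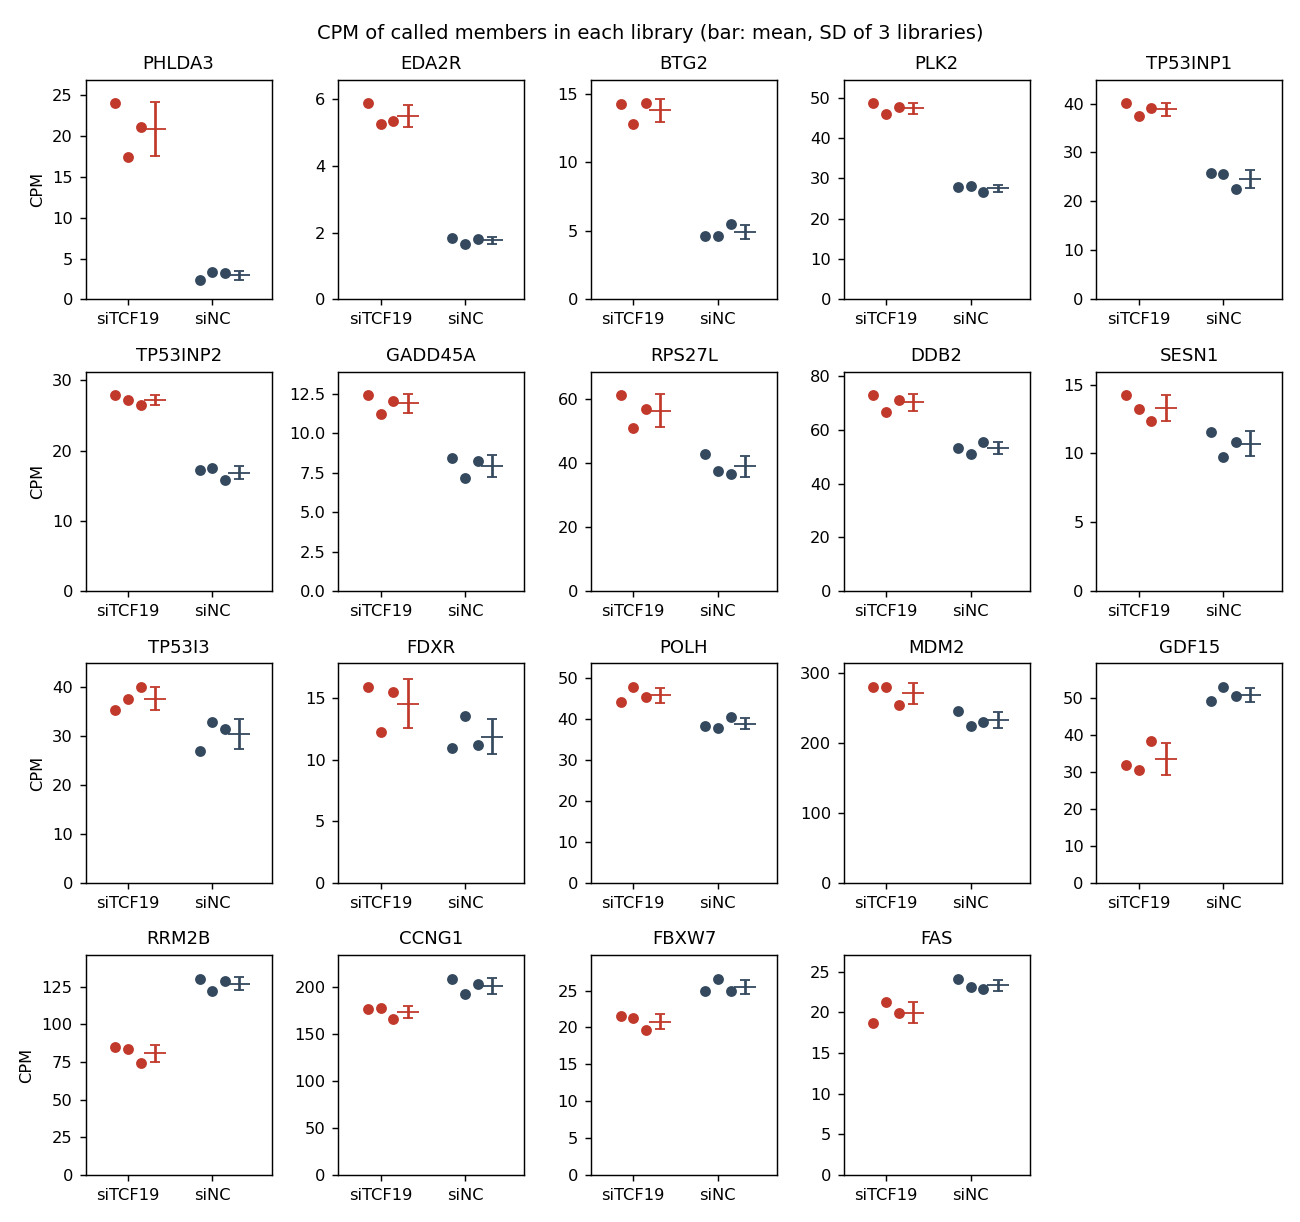
CPM of the 19 called members in each library, siTCF19 in red and siNC in blue, with the mean and SD of 3 libraries beside the points and every axis starting at 0. The groups overlap only for FDXR, where siTCF19 replicate 2 (12.2 CPM) lies below siNC replicate 2 (13.5 CPM).

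Among the 8 genes of cell cycle arrest, 3 were called higher, 1 lower and 4 were not called, beside 20.7% higher and 20.8% lower of all tested genes. BTG2, an antiproliferative protein that recruits the CCR4-NOT deadenylase (ENSG00000159388, chromosome 1, 203305491 to 203309602, plus strand), had 14.2, 12.8 and 14.3 CPM in siTCF19, against 4.6, 4.65 and 5.52 CPM in siNC. Every siTCF19 library was more than 2-fold above every siNC library, and BTG2 rose 2.8-fold (95% interval 2.31 to 3.38, edgeR adjusted p = 4.41e-12). PLK2, a polo-like kinase of centriole duplication that p53 induces (ENSG00000145632, chromosome 5, 58453982 to 58460260, minus strand), had 48.6, 46.0 and 47.6 CPM in siTCF19, against 27.9, 28.1 and 26.6 CPM in siNC. The spread within each group was small beside the gap, and PLK2 rose 1.72-fold (95% interval 1.56 to 1.91, edgeR adjusted p = 6.91e-12). GADD45A, a stress sensor that binds PCNA and CDK1, had 12.4, 11.2 and 12.1 CPM in siTCF19, against 8.45, 7.13 and 8.21 CPM in siNC. It rose by 0.59 ± 0.13 on the log2 scale (edgeR adjusted p = 0.00021).

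CCNG1 encodes cyclin G1, a p53 target that brings phosphatase 2A to MDM2. It had 177, 177 and 165 CPM in siTCF19, against 208, 192 and 203 CPM in siNC, and fell by 0.22 ± 0.05 on the log2 scale (edgeR adjusted p = 0.000358). Per length it was the member with the highest level, at 55.3 FPKM on average in siTCF19 and 64.3 FPKM in siNC. Of the others, GADD45B had 2.4, 2.74 and 3.16 CPM in siTCF19, against 2.06, 1.53 and 2.05 CPM in siNC. Its groups did not overlap, but it was not called (0.56 ± 0.26, edgeR adjusted p = 0.0786), except with library-size-only scaling (0.62, adjusted p = 0.0495) and on the log2(FPKM + 1) scale (0.29, limma adjusted p = 0.0399). BTG1, the antiproliferative relative of BTG2, averaged 8.09 ± 0.459 CPM in siTCF19 and 9.08 ± 1.48 CPM in siNC (SD, n = 3 per group). CCNG2, which encodes cyclin G2, averaged 39.9 ± 1.76 CPM in siTCF19 and 40.1 ± 3.24 CPM in siNC, and the stress kinase gene PLK3 8.83 ± 0.703 CPM in siTCF19 and 9.51 ± 1.9 CPM in siNC. These 3 were not called, and their groups overlapped.

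The set holds 6 pairs of close relatives, so the ratio of the relatives within each library was compared as well, per length (FPKM). The log2 ratio of BTG2 to BTG1 was 1.69, 1.39 and 1.68 in siTCF19, against -0.23, -0.33 and 0.38 in siNC. BTG2 was thus the more abundant of the pair in all siTCF19 libraries, while in siNC the order differed between libraries. The log2 ratio of PLK3 to PLK2 was -1.99, -2.05 and -1.87 in siTCF19 and -0.94, -0.95 and -1.41 in siNC. In siTCF19 the ratio of MDM4 to MDM2 was also lower, by 0.34 on the log2 scale, and that of CCNG2 to CCNG1 higher, by 0.21. None of these 4 pairs overlapped between the groups, and each had p = 0.1 in a two-sided exact permutation test, the smallest that 3 libraries against 3 allow (0.15 adjusted over the 6 pairs). GADD45B and GADD45A differed by -0.03 in log2 ratio (exact permutation p = 0.9), and TP53INP2 and TP53INP1 by 0.03 (exact permutation p = 0.5), with overlapping groups in both.

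**Figure D4:**
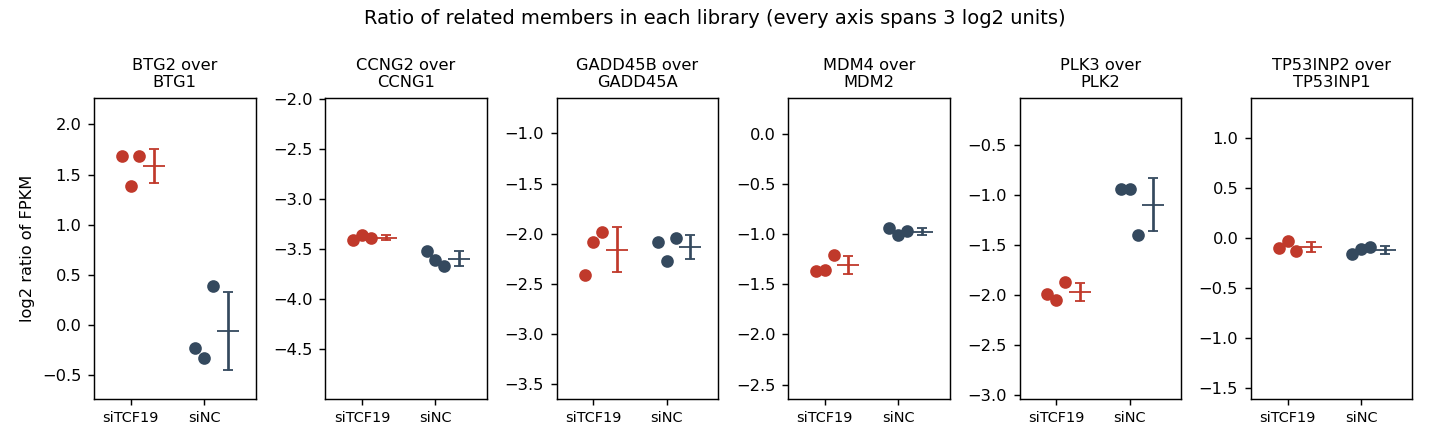
Log2 ratio of FPKM between close relatives in each library, siTCF19 in red and siNC in blue, with the mean and SD of 3 libraries, on axes of equal span. The ratios of BTG2 to BTG1 and of PLK3 to PLK2 differ most between the groups, by 1.64 and -0.87, and siNC replicate 3 is the siNC library nearest to siTCF19 in both.

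Of the 4 genes of DNA repair and nucleotide supply, 2 were called higher, 1 lower and 1 was not called. All tested genes were 20.7% higher and 20.8% lower by the same call. DDB2, the damage sensor of global nucleotide excision repair, holds the paired decamers printed above at an annotated start. It had 73.0, 66.9 and 71.3 CPM in siTCF19, against 53.4, 51.1 and 55.7 CPM in siNC. All siTCF19 libraries were higher, and DDB2 rose 1.32-fold (95% interval 1.21 to 1.44, edgeR adjusted p = 1.11e-06). POLH, the translesion polymerase that copies past UV dimers, had 44.1, 47.8 and 45.3 CPM in siTCF19, against 38.3, 37.7 and 40.4 CPM in siNC, and rose by 0.24 ± 0.07 (edgeR adjusted p = 0.00561). XPC, the partner of DDB2 in damage recognition, averaged 27.9 ± 1.78 CPM in siTCF19 and 26.2 ± 1.5 CPM in siNC (SD, n = 3 per group) and was not called. RRM2B, the p53-inducible small subunit of ribonucleotide reductase (ENSG00000048392, chromosome 8, 102204502 to 102239118, minus strand), went the other way. It had 84.7, 83.5 and 74.1 CPM in siTCF19, against 130.2, 122 and 129 CPM in siNC. Among the 32 tested members none had a lower log2 fold change, and RRM2B was 1.57-fold lower (95% interval 1.45 to 1.7, edgeR adjusted p = 9.28e-13).

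Of the 7 genes of metabolism, autophagy, stress and secretion, 5 were called higher, 1 lower and 1 was not called. The shares of all tested genes were 20.7% higher and 20.8% lower. Of the 5, SESN1 and FDXR were near the threshold, and TP53INP1, TP53INP2 and RPS27L overlap genes of the opposite strand, as described below. TP53INP1 and TP53INP2 encode related proteins that act in autophagy, and TP53INP1 also helps p53 to induce apoptosis. TP53INP1 had 40.1, 37.4 and 39.0 CPM in siTCF19, against 25.8, 25.5 and 22.5 CPM in siNC. TP53INP2 had 27.9, 27.3 and 26.5 CPM in siTCF19, against 17.2, 17.6 and 15.8 CPM in siNC. The relatives changed by similar amounts, 1.58-fold (95% interval 1.41 to 1.76, edgeR adjusted p = 5.03e-09) and 1.62-fold (1.42 to 1.83, edgeR adjusted p = 3.11e-08). RPS27L, a ribosomal protein relative that modulates MDM2, had 61.3, 51.2 and 56.9 CPM in siTCF19, against 42.8, 37.6 and 36.7 CPM in siNC, and rose 1.45-fold (1.31 to 1.6, edgeR adjusted p = 7.98e-08).

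SESN1, which restrains mTORC1 when leucine is scarce, had 14.2, 13.2 and 12.4 CPM in siTCF19, against 11.5, 9.74 and 10.8 CPM in siNC. FDXR, the mitochondrial ferredoxin reductase, had 15.9, 12.2 and 15.5 CPM in siTCF19, against 10.9, 13.5 and 11.2 CPM in siNC. Both calls were near the threshold, SESN1 with separate groups (0.31 ± 0.12, edgeR adjusted p = 0.0309) and FDXR with overlapping ones (0.29 ± 0.12, edgeR adjusted p = 0.0466). With DESeq2 neither was called (adjusted p = 0.0707 for SESN1 and 0.104 for FDXR). SESN1 was also not called without siTCF19 replicate 1 (adjusted p = 0.127) or siNC replicate 2 (0.135), and FDXR without siTCF19 replicate 1 (0.198), siTCF19 replicate 3 (0.138), siNC replicate 1 (0.165) or siNC replicate 3 (0.132). TIGAR, a fructose bisphosphatase that slows glycolysis, averaged 2.95 ± 0.304 CPM in siTCF19 and 2.38 ± 0.199 CPM in siNC (SD, n = 3 per group) and was not called.

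GDF15, a secreted stress cytokine of the TGF-beta superfamily that acts on appetite through the brainstem (ENSG00000130513, chromosome 19, 18374731 to 18389176, plus strand), had 31.8, 30.5 and 38.6 CPM in siTCF19, against 49.3, 53.1 and 50.6 CPM in siNC. Every siTCF19 library was lower, and GDF15 was 1.52-fold lower (95% interval 1.36 to 1.69, edgeR adjusted p = 1.62e-08). GDF15 and RRM2B stood among the 4 most abundant members per length in siNC, with CCNG1 and TRIAP1. In siTCF19 MDM2 and TP53I3 had moved ahead of both, at 20.2 and 16.1 FPKM on average, against 16.0 FPKM for GDF15 and 14.4 FPKM for RRM2B. TP53I3 and GDF15 in siTCF19 differed by less than their SDs of 0.974 and 2.06 FPKM. PHLDA3 had a mean of 6.6 FPKM in siTCF19 and 0.939 FPKM in siNC, rank 13 and rank 29 of the 33 members. Summed over the 33 members, the level was 283 to 293 FPKM in siTCF19 and 277 to 292 FPKM in siNC, and these ranges overlapped.

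Beyond the 33 members, 38 other p53 targets had been listed, of which 37 were tested. Of these, 13 were called higher, 6 lower and 18 were not called, or 35.1% higher and 16.2% lower beside the 20.7% and 20.8% of all tested genes. This list, like that of the upstream genes below, was chosen with earlier results of these data known. Its counts are thus no independent repeat of those of the members. In it, the called genes that changed by at least 2-fold were higher in siTCF19. TNFRSF10C, a decoy receptor for the death ligand TRAIL, had 7.59, 8.62 and 7.22 CPM in siTCF19, against 2.27, 1.59 and 1.35 CPM in siNC (log2 fold change 2.17 ± 0.20, edgeR adjusted p = 5.31e-12). DRAM1, a lysosomal membrane protein of p53-induced autophagy, had 6.9, 7.68 and 6.71 CPM in siTCF19, against 3.78, 1.91 and 2.82 CPM in siNC (1.33 ± 0.19, edgeR adjusted p = 2.65e-07). Smaller rises were found in TM7SF3 (0.45), SUSD6 (0.42), TRAF4 (0.32) and ASCC3 (0.28). FUCA1, the lysosomal fucosidase (-0.85), and the ephrin receptor gene EPHA2 (-0.40) fell. TNFRSF10C overlaps a lincRNA on the same strand that held 10.7 counts on average, beside 73.3 for TNFRSF10C. The other TRAIL receptor genes of the list were named after their values were seen. TNFRSF10A was called lower (-0.30), TNFRSF10B was called higher (0.16) and TNFRSF10D was not called (0.13).

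Upstream of these targets, 22 listed genes were found in the table and tested: 8 were called higher, 4 lower and 10 were not called (36.4% higher and 18.2% lower, beside 20.7% and 20.8% of all tested genes). The family members TP63 and TP73, named after their values were seen, were called higher. TP63 averaged 2.82 ± 0.436 CPM in siTCF19 and 1.49 ± 0.186 CPM in siNC (log2 fold change 0.92 ± 0.27, edgeR adjusted p = 0.00518). TP73 averaged 24.7 ± 0.182 CPM in siTCF19 and 19.8 ± 2.77 CPM in siNC (0.31 ± 0.09, edgeR adjusted p = 0.00707; SD, n = 3 per group).

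DYRK2 and HIPK2, kinases that phosphorylate the serine of p53 tied to apoptosis, rose. DYRK2 averaged 669 ± 33.1 CPM in siTCF19 and 404 ± 2.45 CPM in siNC (0.73 ± 0.04, edgeR adjusted p = 1.56e-17), and HIPK2 averaged 170.0 ± 7.6 CPM in siTCF19 and 119 ± 6.94 CPM in siNC (0.51 ± 0.05, edgeR adjusted p = 1.03e-10; SD, n = 3 per group). The coactivator gene CREBBP rose by 0.18, and TP53BP1, which encodes a DNA break repair protein, by 0.19. TP53BP1 overlaps TUBGCP4 on the opposite strand, which held 1777 counts on average beside 1563 for TP53BP1, so its value is uncertain without the strand setting. The deacetylase gene SIRT1, whose product removes acetyl groups from p53, fell by 0.58, and CDKN2A, which encodes the MDM2 inhibitor ARF beside p16, fell by 0.41. RPL5 (-0.52) and RPL11 (-0.47), ribosomal proteins that bind MDM2 when ribosome assembly is disturbed, also fell. The damage kinase genes of the list were also named after their values were seen. CHEK1 was called higher (0.18, edgeR adjusted p = 0.0133). ATR (-0.15, edgeR adjusted p = 0.0618), PRKDC (-0.10, edgeR adjusted p = 0.0687), CHEK2 (-0.06) and ATM (-0.002) were not called.

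**Figure D5:**
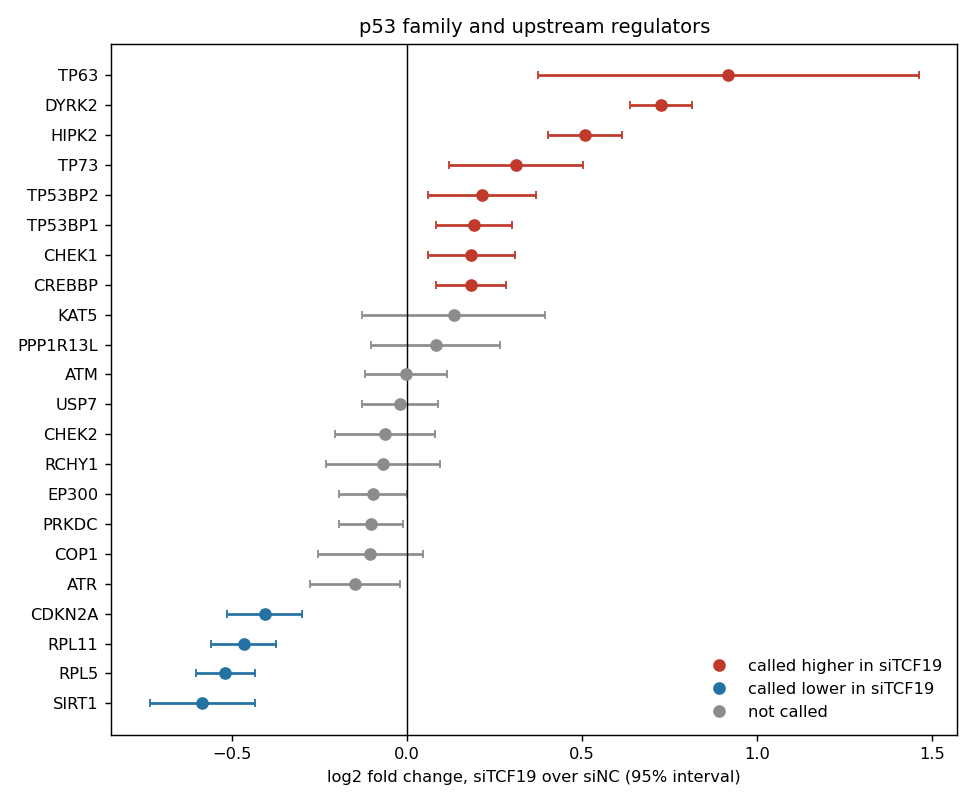
Log2 fold change, siTCF19 over siNC, of 22 genes upstream of the p53 targets with 95% intervals, ordered by value and coloured by call. TP63, DYRK2 and HIPK2 stand at the top and CDKN2A, RPL11, RPL5 and SIRT1, all called lower, at the bottom.

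The strand setting of the counting also bears on 5 members that share genomic sequence with a gene of the opposite strand holding over 10% of their own counts. These partners are LSM3 and AC093495.1 for XPC, GTPBP2 for POLH, NDUFAF6 for TP53INP1, NCOA6 for TP53INP2 and LACTB for RPS27L, and the values of these 5 members are uncertain to that extent. Processed pseudogenes named after a member, for TRIAP1, BTG1, CCNG1, CCNG2 and POLH, held 0 to 6 counts per library.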

How the data were processed

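RNA-seq counts of 6 libraries were used, 3 siTCF19 and 3 siNC. Per the file headers, the authors deposited read counts and FPKM values, which are scaled by gene length and depth. Their comparison of the groups, also deposited, holds each group's normalized mean signal, the log2 fold change and the raw and adjusted p-value. The submitters' processing notes list the aligner HISAT2 2.0.5, the read counter featureCounts 1.5.0-p3 and the build hg38. The sources used here do not give the strand setting. Positions of all 58735 genes were the same as in GENCODE 29.

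Counts were tested as deposited with edgeR 4.0.16 (filterByExpr, TMM, glmQLFit, glmQLFTest; R 4.3.3), group as the only term, with Benjamini and Hochberg adjustment over 17299 tested genes, which held at least 99.7% of each library's counts. A standard error is the log2 fold change divided by the root of the F statistic, and 95% intervals use its degrees of freedom. They cover the spread between libraries. A floor of 3 counts was 0.19 to 0.206 CPM. The procedure was run on simulated data in which a small share of genes changed, by 1.5-fold or 2-fold. Smaller changes, and changes in as many genes as were called here, were not simulated. Every pair of libraries differed by more than counting noise (chi-square per degree of freedom at least 2.28).

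In the authors' deposited table, of the 33 members 16 have an adjusted p under 0.05. All 16 were called here, and FAS, SESN1 and FDXR were called here only. The sources used here do not name the tool behind that table.

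The members and lists were chosen with earlier results of these data known. By rule, the named genes were all members, TCF19 and, from each of the lists of other targets and upstream genes, called genes. These were the ones of at least 2-fold and then those of lowest p, up to 8. Outside this rule, BAX, further TRAIL receptor genes, TP63, TP73 and the damage kinase genes were named after their values were seen. The marker genes given singly were also outside it. An upstream gene and a marker gene are not reported here and were left out of their lists. Alternatives were scaling by RLE, by the upper quartile or by library size alone, omitting the filter, keeping genes with 1 CPM or more in 3 libraries, DESeq2 1.42.0, limma-voom and limma-trend (limma 3.58.1) on log2(FPKM + 1), a block for the replicate number, a threshold of 0.01 for the adjusted p, and leaving out each library in turn. Promoters were read from RefSeq tables with Python 3.11.15 and figures drawn with matplotlib 3.10.9.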

Additional observations from a re-analysis of the deposited data

How the results depend on the processing

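Of the 19 called members, 15 kept their call and direction in every alternative run; FAS, SESN1, FDXR and FBXW7 did not, and MDM4, GADD45B and SPATA18 were gained in some. The number of members called higher was 12 to 15 and the number called lower 3 to 6 over all alternatives, the lowest being 3 lower on the log2(FPKM + 1) scale. Without a filter the 5 called lower included SPATA18 and not FAS. The median log2 fold change of the tested members was 0.26 with library-size-only scaling, where the median of all tested genes moved to 0.06, and 0.13 on the log2(FPKM + 1) scale. With 1 library left out, the median was 0.15 to 0.25, with 12 to 14 members higher and 4 to 6 lower. The other p53 targets were then 10 to 14 higher and 5 or 6 lower, and the upstream genes 6 to 8 higher and 4 or 5 lower. Same-numbered libraries did not deviate together (correlations -0.02 to 0.02). Such correlations cannot show whether same-numbered libraries were handled together, and the labels do not say whether the numbers pair the samples. With the replicate block, 14 members were higher and 4 lower, FAS being lost (adjusted p = 0.0593). At this depth the intervals of low members such as BBC3, TIGAR and GADD45B are wide.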

Other observations

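PHLDA3, BTG2 and MDM4 lie within 3.09 Mb of each other on the long arm of chromosome 1, an interval chosen after their values were seen. Of the 39 tested genes from PHLDA3 to MDM4, with these members counted among them, 15 were called higher and 7 lower. That is 56.4% called, beside 41.5% of all tested genes. The median log2 fold change in the interval was 0.17. PHLDA3 (2.81) and BTG2 (1.48) rose, and MDM4 (-0.12) was not called.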
